A study of Homo sapiens with 8 samples.

Results

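Described here are the peaks of an RBPMS eCLIP experiment that lie on the transcripts of 9 genes of the WNT pathway: NKD1, CTNNB1, AXIN2, FZD7, LRP6, TCF7L1, APC, GSK3B and SFRP2. A member is a listed peak that overlaps the hg19 window of 1 of these genes on the gene's own strand. The 4 peak lists held 393 such peaks of 194003 in all. Library 1 held 90 of 25759, library 2 held 210 of 118375, library 3 held 37 of 20254 and library 4 held 56 of 29615. The genes were chosen with the measured values in view, so all counts and levels below are a description.

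eCLIP crosslinks protein to RNA with UV light, pulls the protein down with an antibody and sequences the RNA fragments that come with it. All samples were HUES6, a human embryonic stem cell line, wild type and labelled as control for treatment. The 4 eCLIP libraries came from cells irradiated at 400 mJ/cm2 and immunoprecipitated with an RBPMS-specific antibody. The 4 input libraries, prepared without an antibody, are present only as the denominator of the deposited values, and which input entered which list is not stated. No mock or knockout immunoprecipitation is among the samples used here, and nothing states that the libraries came from separate cultures. RNA levels of the 9 genes and of stem cell markers were not analysed here.

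WNT ligands bind Frizzled receptors and the co-receptors LRP5 and LRP6, which recruit Dishevelled and hold back the complex of AXIN, APC and GSK3 that otherwise marks beta-catenin for breakdown. Beta-catenin, the product of CTNNB1, then acts in the nucleus with factors of the TCF/LEF family. In human pluripotent cells the pathway takes part in the balance between self-renewal and mesoderm and endoderm differentiation. RBPMS is an RNA-binding protein with 1 RNA recognition motif domain that acts as a dimer.

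Each peak carries 2 values made by the authors, the log2 fold of immunoprecipitation over input and the −log10 p of that comparison. A peak was called enriched where the log2 fold reached 3, which is 8-fold, and −log10 p reached 3 as well. The whole read numbers behind the 2 values were recovered where the pair allowed only 1 solution, which was so for 313 of the 393 peaks, and 3 further peaks at the ceiling of the p gave a lowest possible read number. An input of 0 cannot be told from an input of 1, so folds over 1 input read depend on how 0 was treated. Reads can also span adjoining peaks, so read numbers of neighbours are not added up.

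Over 316 shared peaks with −log10 p below the ceiling, the difference between the immunoprecipitation reads of libraries 3 and 4 was within the sampling noise (chi-square 0.957 per degree of freedom, p = 0.697), while the other 5 pairs gave 3.31 to 5.07. With all 398 shared peaks of recovered reads the chi-square was 1.08 per degree of freedom (p = 0.138), against 6.29 to 12.3 for the other pairs. The 2 were therefore counted as 1 sample, and each mean ± SD is over n = 3 samples: library 1, library 2 and the mean of libraries 3 and 4. Where 1 of the latter had no enriched peak, the other stands for the sample.

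Enriched peaks were spread very unevenly over the pathway. Enriched peaks that share bases were merged into regions, and a region enriched in at least 3 of the 4 libraries was called reproducible, which held for 22.7% of all merged regions of the series. Of the 9 genes, 4 held such a region: NKD1, a cytoplasmic antagonist of WNT signalling, FZD7, a WNT receptor, SFRP2, a secreted WNT-binding protein, and TCF7L1, a TCF/LEF factor. The other 5, CTNNB1, LRP6 and the destruction complex genes AXIN2, APC and GSK3B, held none. The 9 windows held 23 merged regions in all, and 10 of them were reproducible, 7 in NKD1 and 1 in each of the other 3 genes. This rule took libraries 3 and 4 singly. With these as 1 sample and at least 2 of 3 samples asked for, the same 4 genes held 12 regions. Of these, 2 were in FZD7 and 2 in TCF7L1, and the share over the series was not computed for this rule.

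Library 1 had 19 enriched member peaks, 21.1% of its listed ones (Wilson 95% interval 14.0 to 30.6), where 15.9% of all its listed peaks were enriched. Library 2 had 18, or 8.57% (5.49 to 13.1), beside 5.38% over its whole list. Library 3 had 15, or 40.5% (26.3 to 56.5), beside 12.6%, and library 4 had 13, or 23.2% (14.1 to 35.8), beside 12.7%. The mean was 17.0 ± 2.65 enriched peaks (SD, n = 3). The intervals cover counting error only and take neighbouring peaks as independent, and since the genes were chosen on these values nothing is read from the differences. NKD1 alone supplied 28 of the 65 enriched peaks, SFRP2 18, TCF7L1 12, FZD7 6 and CTNNB1 1. The median log2 fold of the member peaks was 2.40, 1.06, 3.09 and 2.13 in libraries 1 to 4, beside 3.25, 1.06, 2.67 and 2.13 over all listed peaks.

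**Figure D1:**
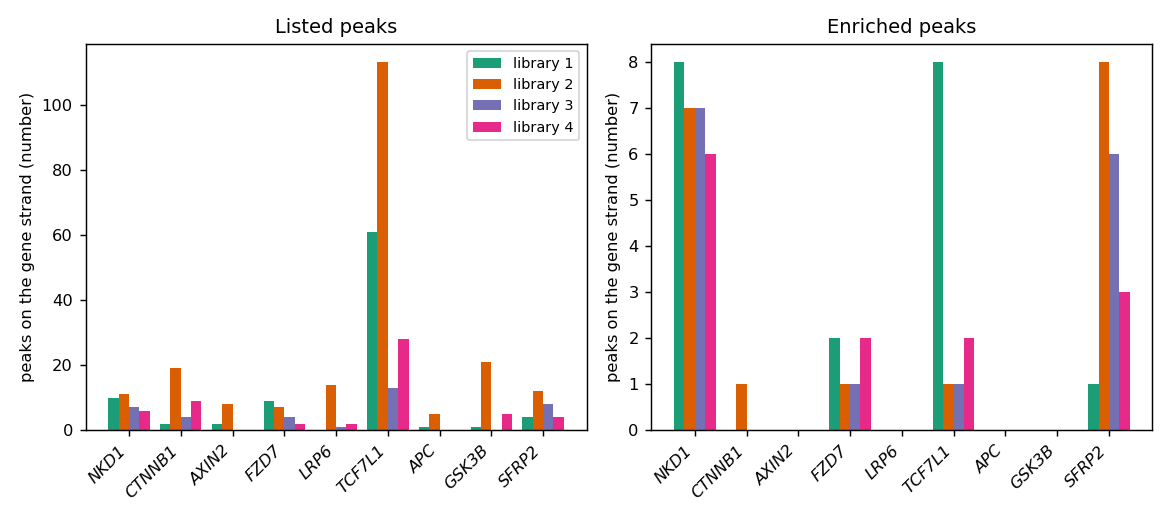
Listed peaks (left) and enriched peaks (right) on the gene strand of each of the 9 windows, as bars of the number of peaks per gene and library. TCF7L1 has the tallest bars among listed peaks, 113 in library 2, while NKD1 has 6 to 8 enriched peaks in each of the 4 libraries.

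The number of listed peaks did not follow the number of enriched ones. TCF7L1, whose window spans 178 kb, held 215 listed peaks over the 4 libraries, which is 54.7% of all member peaks, and 5.58% of them were enriched. NKD1, with a window of 89 kb, held 34 listed peaks, of which 82.4% were enriched. In SFRP2, with a window of 10 kb, 18 of 28 listed peaks were enriched, and in FZD7, with a window of 5 kb, 6 of 22. Of the SFRP2 peaks, 1, 7, 5 and 1 in libraries 1 to 4 lay in 1 region of 196 bases. GSK3B has the longest window, 273 kb, and held 27 listed peaks with 0 enriched. Over all listed peaks of the series, 5.38% to 15.9% were enriched, depending on the library. The genes differ in how their peaks divide over the libraries, so their shares are a description only.

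On the other strand of the 9 windows, which the choice of members did not use, 2 peaks were listed in all. Both lay in the NKD1 window in library 1, at 50644895 to 50644900 and 50644901 to 50644919 on chromosome 16, with 3 immunoprecipitation reads over 1 input read each, and neither was enriched. In the GRCh38.p14 RefSeq table NKD1 overlaps 1 other gene, NKD1-AS1, and TCF7L1 and LRP6 overlap 4 each, GSK3B 3 and APC 2. A peak in these windows need not come from the named transcript. No same-strand peak was listed within 5 kb outside any of the 9 windows, in any library (0 in each).

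NKD1 binds Dishevelled and is itself switched on by WNT signalling, so it belongs to the negative feedback arm of the pathway. All 28 of its enriched peaks lay in 1 stretch of 1088 bases on chromosome 16, 50612960 to 50614047, plus strand, which is 1.22% of the window. They formed 7 regions, 5 of them enriched in all 4 libraries and 2 in 3 libraries. The 7 regions covered 802 of the 1088 bases, with gaps of 4 to 89 bases and centres 160 ± 41.6 bases apart (SD over the 6 spacings).

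Counted as runs of reproducible regions at most 1 kb apart, NKD1 was 1 of 12 runs with 7 or more regions among 1049 runs, and 6 of these 12 had exactly 7. The mean log2 fold of its 7 regions was 4.81 ± 0.68 (SD, n = 3), and 4 of the 7 exceeded 4.71, the median over all 1699 reproducible regions. NKD1 thus held many regions side by side, and their levels lay on both sides of that median.

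The regions are given in the order of transcription. The first region, 50612960 to 50613118, had log2 folds of 4.37, 4.85, 4.89 and 5.63 in libraries 1 to 4, a mean of 4.83 ± 0.45 (SD, n = 3). Library 1 was lowest and library 4 highest. The peaks rested on 26 immunoprecipitation reads over 4 input reads, 83 over 3, 14 over 1 and 34 over 1, respectively. No base of this region was shared by the enriched peaks of all 4 libraries, since the bases common to libraries 1 and 4 fell between the pair of peaks that library 3 had there.

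The second region, 50613182 to 50613329, had log2 folds of 3.78, 6.38, 5.26 and 5.83, a mean of 5.24 ± 1.33 (SD, n = 3). Library 1 was again lowest, with 13 reads over 3, and library 2, with at least 80 reads, was highest. The third region, 50613419 to 50613487, is narrower, at 69 bases, and had 3.13, 5.68, 4.26 and 4.94, a mean of 4.47 ± 1.28. Both means lie within 1 SD of that of the first region.

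The fourth region, 50613541 to 50613587, is the narrowest, at 47 bases. Its log2 folds of 4.25, 4.38 and 4.41 in libraries 1 to 3 lay closest together of the 7 regions, with a mean of 4.35 ± 0.083 (SD, n = 3), and library 4 listed no peak there. The read numbers were 12 over 2, 20 over 1 and 10 over 1.

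The fifth region, 50613646 to 50613818, is the widest, at 173 bases, and had the highest mean of the run, 5.28 ± 1.34 (SD, n = 3). Libraries 2, 3 and 4 lay together at 5.94, 5.99 and 6.35, and library 1 lay below them at 3.74. The immunoprecipitation reads were 21 over 5 input reads in library 1 and 30 over 1 in library 3, and at least 59 and 56 in libraries 2 and 4. The enriched peaks of all 4 libraries shared 85 bases, 50613718 to 50613802.

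The sixth region, 50613823 to 50613936, was the exception in the order of the libraries. Here library 1 was highest, at 5.67 with 16 reads over 1, followed by library 2 at 4.94 and library 4 at 4.35, and library 3 listed no peak. The last region, 50613956 to 50614047, again had library 1 lowest, with 3.25, 4.31, 5.26 and 5.0 in libraries 1 to 4, a mean of 4.23 ± 0.94 (SD, n = 3).

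**Figure D2:**
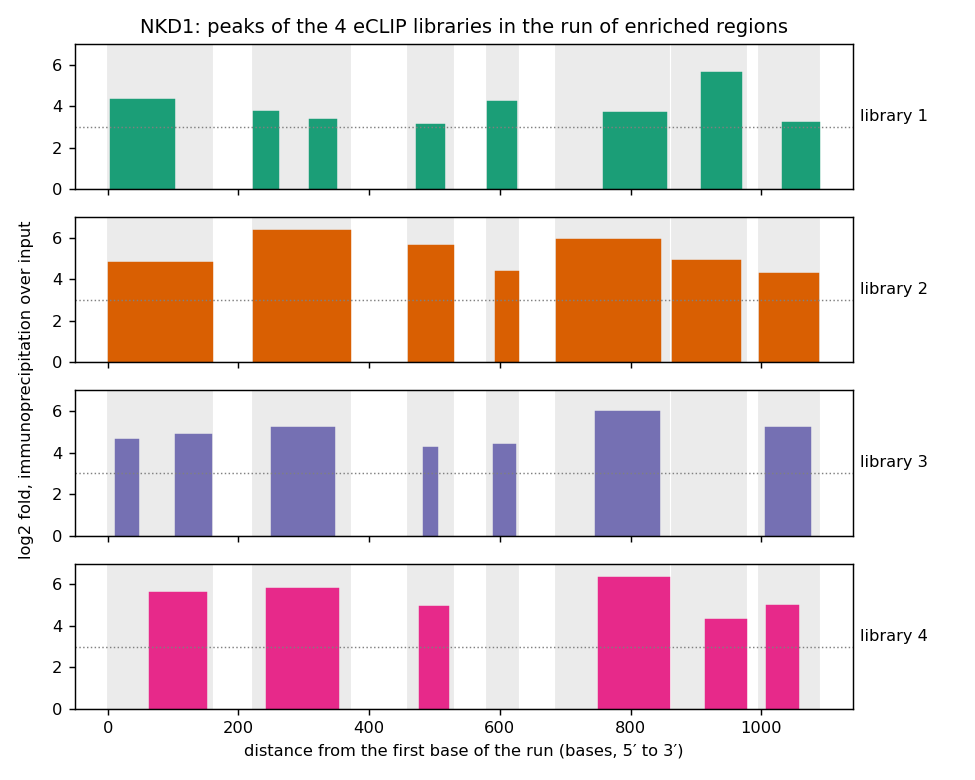
Peaks in the NKD1 run, 1 panel per library, drawn to scale along the transcript from the first base of the run (x axis, bases) with the log2 fold over input as bar height. Filled bars are enriched peaks, grey shading marks the 7 regions and the dotted line is the threshold of 3. All 28 peaks drawn are enriched; library 3 lacks a bar in the sixth region and library 4 in the fourth.

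Library 1 gave the lowest value in all 5 NKD1 regions that were enriched in all 4 libraries. Its mean over the 7 regions was 4.03, against 5.21 in library 2, 5.01 over 6 regions in library 3 and 5.35 over 6 regions in library 4. In library 1 the peaks of the run had 1 to 5 input reads, and 1 of 8 had the lowest possible number of 1. Library 2 had 1 to 3, with 4 of 7 peaks at 1. In library 3 all 7 had 1 input read, and in library 4 all 6 had 1 or 2. For some peaks at the ceiling of the p these are only the lowest numbers that the fold allows. Such peaks were those at 50613183 and 50613646 in library 2 and at 50613710 in library 4. By these numbers library 1 had the most input reads and the lowest mean, but libraries 2 and 3 did not follow that order. Library 1 also had the highest depth of input relative to immunoprecipitation, 3.18, against 1.04, 2.12 and 1.46 in libraries 2 to 4. The part of input reads and depth in the lower folds was not tested.

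Outside the run the NKD1 window was nearly empty. Libraries 3 and 4 listed no peak there, library 1 listed 2 and library 2 listed 4, and the highest −log10 p among them was 1.35. The peaks of library 1, at 50657477 to 50657542, had 3 immunoprecipitation reads each. The NKD1 window is shorter than the gene in the GRCh38.p14 RefSeq table, which is 101 kb long, so part of the longest annotated transcript may lie outside it. In which intron or exon the run lies was not determined, since no annotation on hg19 was used here.

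FZD7 encodes a Frizzled receptor that is abundant in human embryonic stem cells, and the gene has no introns. Its enriched signal lay near the 3′ end of the transcript. The region on chromosome 2, 202903074 to 202903155, plus strand, 0.845 kb before the 3′ edge of the window, had log2 folds of 5.06, 5.53, 5.41 and 4.40 in libraries 1 to 4, a mean of 5.16 ± 0.33 (SD, n = 3). Libraries 1 to 3 lay within 0.5 of each other and library 4 was lowest. The read numbers were 21 over 2, 133 over 3, 20 over 1 and 29 over 2. The position was shared closely: the 4 peaks began between 202903074 and 202903082, and 65 of the 82 bases were common to all 4.

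Just 5′ of it lay a second site, 202902972 to 202903057, with 4.67 in library 1 and 4.35 in library 4. Libraries 2 and 3 listed peaks there that were not enriched, at a log2 fold of 1.99 with −log10 p of 2.23 and at 3.09 with −log10 p of 1.41. The site was thus seen in all 4 lists but passed the thresholds in 2. The first 3 kb of the window held 6, 4, 1 and 0 listed peaks in libraries 1 to 4, with 0 enriched. There the highest log2 fold was 2.25, in library 1, and in libraries 2 and 3 every value was below 0. Another library 1 peak there, at 202899988 to 202900076, passed the p threshold, with a log2 fold of 1.93 and −log10 p of 4.04 on 18 reads over 15. Within this single-exon transcript of at most 5 kb, the log2 fold over input thus ran in library 2 from -1.34 near the 5′ end to 5.53 near the 3′ end.

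SFRP2, which binds WNT ligands outside the cell, had the largest read numbers of the 9 genes. Its reproducible region lay on chromosome 4, 154702361 to 154702556, minus strand, 1.36 kb before the 3′ edge of the window. The highest enriched peak there had log2 folds of 3.80, 4.39, 4.59 and 5.02 in libraries 1 to 4, a mean of 4.33 ± 0.51 (SD, n = 3). These peaks rested on 70 immunoprecipitation reads over 16 input reads, 421 over 21, 34 over 3 and 200 over 9. No value here depends on a single input read, unlike many of the NKD1 values.

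The SFRP2 region was cut into several peaks in 3 libraries. Within it the fold rose along the transcript in libraries 1 and 3, and in library 2 it rose and was then somewhat lower. In library 3 the 5 peaks had, from 5′ to 3′, 3.34, 3.50, 3.62, 4.09 and 4.59. In library 1 a peak at 2.93 preceded the one at 3.80, and 2 further peaks upstream had 1.44 and 1.61. In library 2 the log2 fold rose from 0.46 at 154702662 to 154702704, through 2.03 at 154702524 to 154702543, to 4.39 at 154702431 to 154702446, and the next 4 peaks 3′ of this had 3.97 to 4.31. These 3 named peaks had 119, 459 and 421 immunoprecipitation reads over 90, 117 and 21 input reads. Between the last 2 of them the immunoprecipitation reads were similar and the input reads fell, and their part in the rise was not tested. Library 4 had 1 peak over the region and shows no profile.

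Sites further 3′ in SFRP2 were not shared by all libraries. Libraries 3 and 4, counted as 1 sample, had overlapping enriched peaks at 154701829 to 154701878, with log2 folds of 4.54 and 3.13, and library 4 had another at 154701781 to 154701824, at 3.82. Libraries 1 and 2 listed no peak at either. The labels give libraries 1 and 2 codes of 1 series and libraries 3 and 4 codes of another, without saying what the codes stand for. Library 2 alone had an enriched peak at 154702213 to 154702256, at 3.84 on 151 reads over 11. Near the 5′ end of the transcript, the 3 peaks listed in the first 1 kb of the window, 2 in library 3 and 1 in library 4, had log2 folds of -0.69, -0.25 and 0.47.

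TCF7L1 encodes a TCF/LEF factor that mostly acts as a repressor and restrains the pluripotency network. Its reproducible region on chromosome 2, 85434309 to 85434414, plus strand, lay 74.3 kb into the window. The log2 folds were 4.84, 3.87 and 3.86 in libraries 1, 2 and 4, a mean of 4.19 ± 0.56 (SD, n = 3), on 18 reads over 2, 28 over 2 and 10 over 1. Library 3 listed a peak there too, at 3.41 with −log10 p of 1.83, which was not enriched. The region was no longer called with −log10 p of at least 5, with all 4 libraries asked for, or with at least 13 immunoprecipitation reads per peak.

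Further enriched peaks of TCF7L1 came mostly from library 1. Over the 332 bases from the start of the region, library 1 had 4 enriched peaks in a row, with log2 folds of 4.25 to 4.91, of which the peak with the most reads had 53 over 6. Library 4 had 2 enriched peaks of 3 there, library 2 had 1 of 3 and library 3 had 0 of 2. Library 1 also had enriched peaks at 85395551 to 85395660, 85399193 to 85399256, 85418325 to 85418398 and 85514196 to 85514303, which no other library called enriched. Those at 85399193 and 85418325 had 7 reads over 1 each, the fewest that could pass in library 1, where libraries 2 to 4 needed 13, 8 and 10. The peak at 85395551 had a log2 fold of 3.05, close to the threshold. In all, 8 enriched peaks came from library 1, and 1, 1 and 2 from libraries 2 to 4.

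The 3′ end of the TCF7L1 window held a further group of peaks with smaller folds. In its last 2 kb the libraries listed 3, 6, 3 and 4 peaks. Library 2 had 68 reads over 11 at 85537262 to 85537353, a log2 fold of 2.69 with −log10 p of 10.1. Libraries 1, 3 and 4 had 2.54, 4.09 and 2.13 at the same place, so that only library 3, on 8 reads over 1, passed the fold threshold. With a log2 fold of at least 2 asked for, TCF7L1 had 3 reproducible regions in place of 1.

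**Figure D3:**
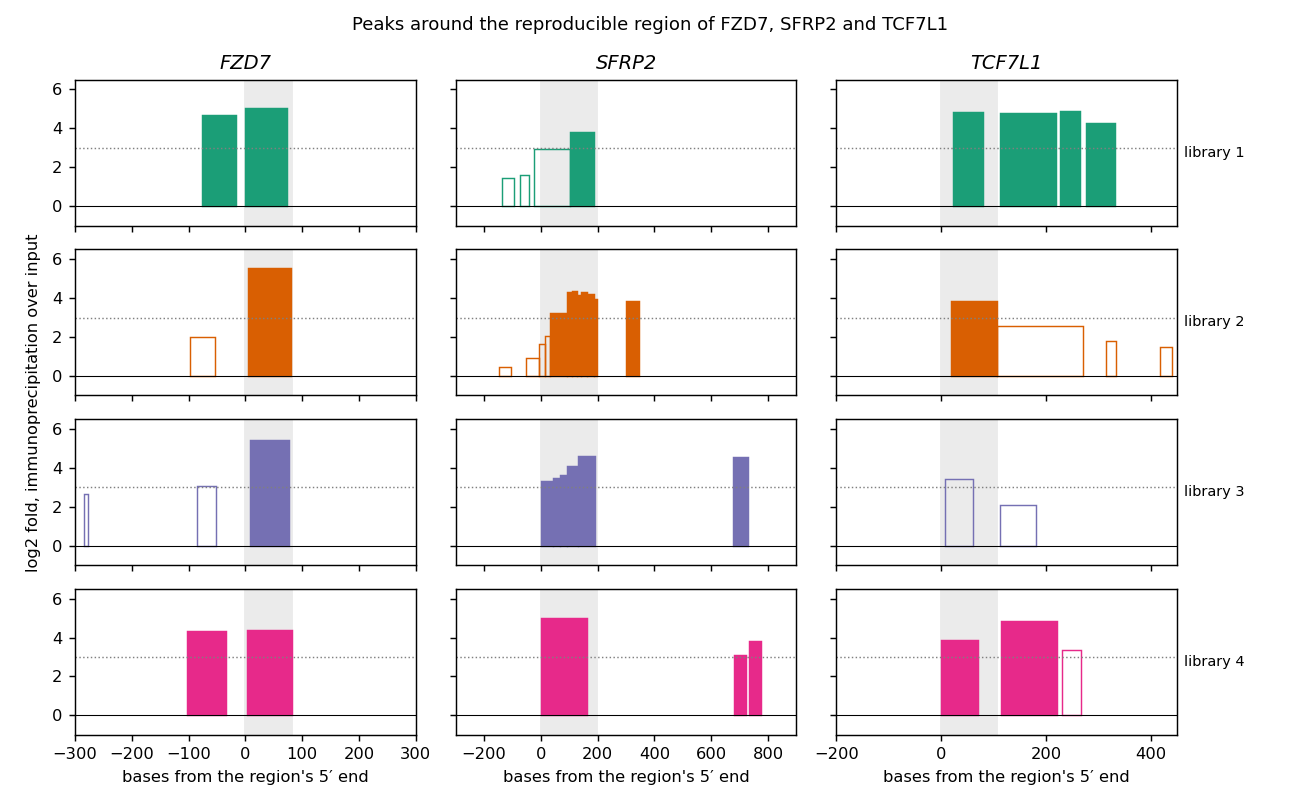
Peaks around the reproducible region of FZD7, SFRP2 and TCF7L1 (columns) in libraries 1 to 4 (rows), by distance from the region's 5′ end in bases along the transcript and log2 fold over input. Filled bars are enriched peaks, open bars are listed but not enriched, grey marks the reproducible region and the dotted line the threshold of 3. FZD7 shows the same peak in all 4 rows, SFRP2 a rise from left to right in libraries 1 to 3, and TCF7L1 a row of 4 filled bars in library 1.

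Ordered by their highest enriched peak, NKD1 came first at 6.07 ± 0.37 (SD, n = 3) and FZD7 followed at 5.16 ± 0.33, with TCF7L1 at 4.42 ± 0.53 and SFRP2 at 4.33 ± 0.51. By library, NKD1 had 5.67, 6.38, 5.99 and 6.35 and FZD7 had 5.06, 5.53, 5.41 and 4.40, so these 2 did not overlap. Each of these NKD1 values was set over 1 input read, in libraries 2 and 4 the lowest number that the fold allows. The FZD7 values were set over 2, 3, 1 and 2. Folds over 1 input read depend on how 0 was treated, and the genes were chosen on these values. Nothing is therefore read from the order. The highest of several regions favours genes with more enriched regions, which numbered 9 in TCF7L1, 7 in NKD1, 4 in SFRP2 and 2 in FZD7. For TCF7L1 the value joins different sites. In library 3 it came from 85537267 to 85537323, near the 3′ edge of the window, on 8 reads over 1. FZD7 overlapped both TCF7L1, with 4.91, 3.87, 4.09 and 4.86, and SFRP2, with 3.80, 4.39, 4.59 and 5.02, and the latter pair did not differ beyond their spread. The 10 reproducible regions had means between 4.19 and 5.28 and ranked from 406 to 1310 among the 1699 of the series.

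**Figure D4:**
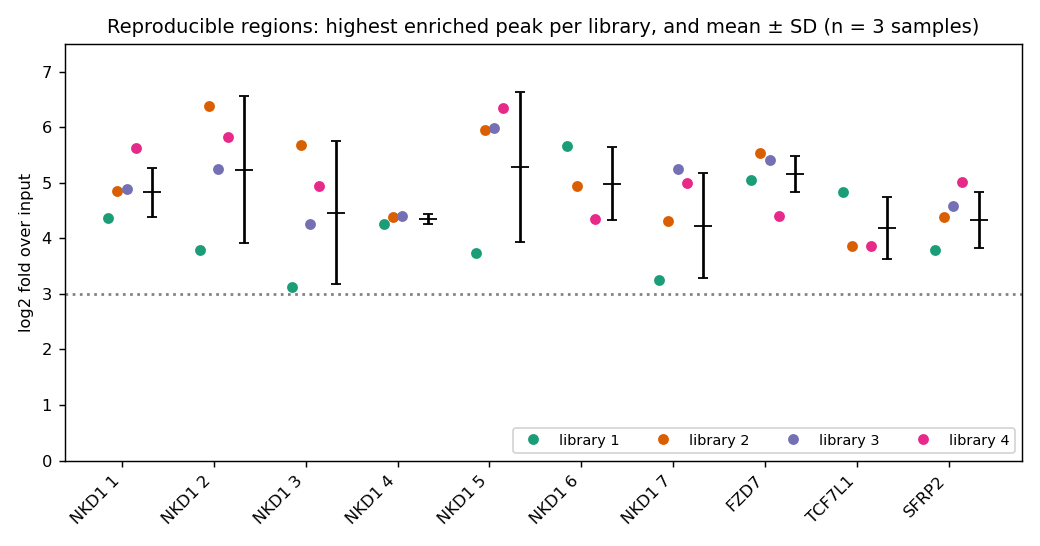
Log2 fold over input of the 10 reproducible regions, NKD1 regions numbered in the order of transcription. Coloured points are the highest enriched peak in each library, and the black bars give the mean ± SD over n = 3 samples. Library 1 is lowest in the 5 NKD1 regions enriched in all 4 libraries. All points lie above the dotted threshold of 3 by definition, since only enriched peaks are drawn.

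CTNNB1 encodes beta-catenin, the effector of the pathway. It held 34 listed peaks, and 1 was enriched, on chromosome 3 at 41281579 to 41281663, plus strand, 0.337 kb before the 3′ edge of the window. This peak of library 2 had a log2 fold of 3.58 with −log10 p of 5.13, on 23 reads over 2. Libraries 3 and 4 listed peaks at the same place, at 3.67 on 6 reads and 1.54 on 4 reads, that did not pass. Library 1 listed none in the last 1 kb.

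The destruction complex gave no enriched peak. AXIN2, a scaffold of the complex and a classical WNT target, held 10 listed peaks, 2 in library 1 and 8 in library 2. The highest −log10 p, 1.03, was shared by adjoining peaks of library 1 on chromosome 17, at 63529351 to 63529361 and 63529362 to 63529398, minus strand, with 3 reads over 2 each. APC, the other scaffold, held 6, and the one with the highest −log10 p, on chromosome 5 at 112048107 to 112048135, plus strand, had 3 reads over 1. GSK3B, the kinase, held 27. Its peak with the highest −log10 p, 1.55, on chromosome 3 at 119582279 to 119582449, minus strand, had a log2 fold of 1.76 on 13 reads over 4. Its highest log2 fold was 3.25, in library 1 at 119602899 to 119602923, on 3 reads over 1 with −log10 p of 1.35.

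LRP6, the co-receptor, had a peak that passed the p threshold and narrowly missed that of the fold. Library 2 listed a peak on chromosome 12 at 12274141 to 12274355, minus strand, at a log2 fold of 2.97 with −log10 p of 5.61 on 30 reads over 4. Of its 17 listed peaks 14 came from library 2, 1 from library 3 and 2 from library 4, and library 1 listed none. At this depth these values do not show that RBPMS was absent from the 5 transcripts: over 1 input read the thresholds needed at least 7, 13, 8 and 10 immunoprecipitation reads in libraries 1 to 4. Fewer RNA molecules and less binding per molecule cannot be told apart where no peak is enriched.

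**Figure D5:**
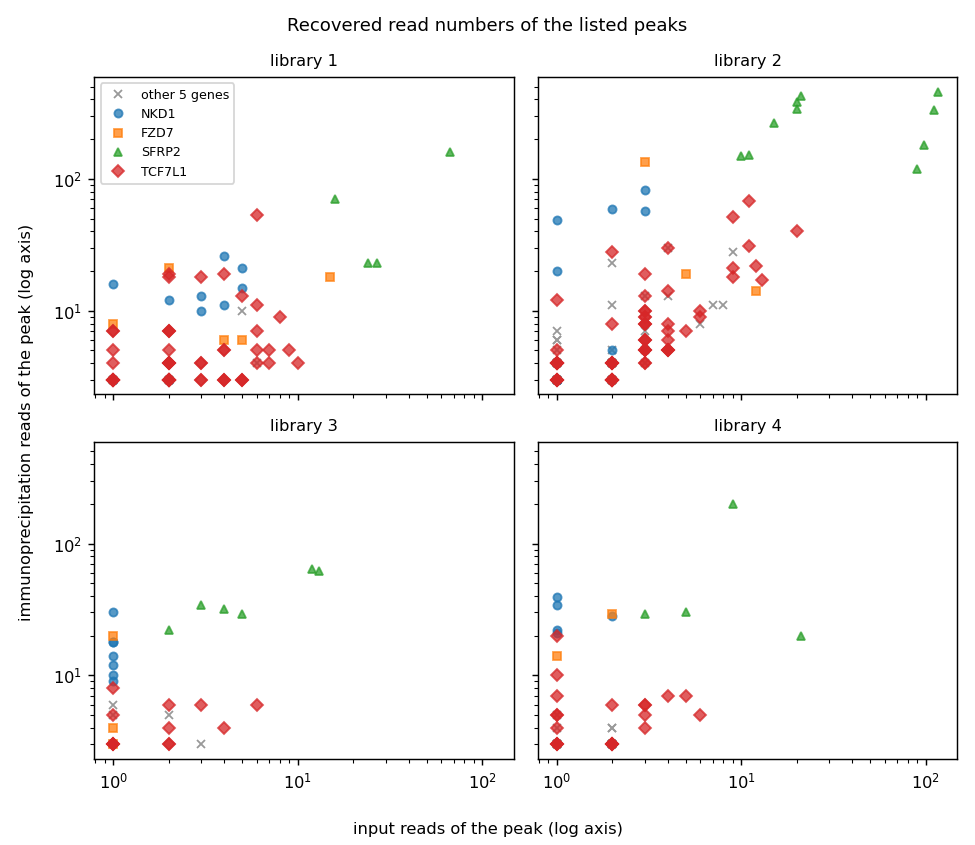
Immunoprecipitation reads against input reads of each member peak whose read numbers were recovered, both on log axes, 1 panel per library, by gene. NKD1 peaks stand at 1 to 5 input reads, SFRP2 peaks reach 459 immunoprecipitation reads in library 2, and most TCF7L1 peaks lie at the lower left, near the minimum of 3 immunoprecipitation reads.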

How the data were processed

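Each of 4 eCLIP libraries has 1 peak list on hg19, per the submitters' processing notes; how reads were aligned and peaks called is not stated in the labels. The deposited values per peak are a −log10 p-value, which stops at 400, and a log2 fold of immunoprecipitation over input, both made by the authors; the columns carry no header and were identified from their values. The 9 gene windows were used as whole kilobases. Read numbers were recovered from the log2 fold, a constant per library, and Fisher's exact test or, where all observed and expected read numbers were at least 5, the chi-square test with continuity correction, within a relative tolerance of 0.003 and for −log10 p of at least 0.1. This was tested on simulated data, where 983 of 983 pairs came back; it cannot show how the authors made their p. Values at the ceiling of 15.7, reached by Fisher's exact test, gave a lowest read number only, unless the fold allowed just 1 pair. Of the listed peaks with log2 above 0 and below the ceiling, 88.3% to 99.4% gave unique read numbers. Total reads per library are unknown. Median immunoprecipitation reads per peak were 3 to 4.

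Enriched peaks that shared at least 1 base on 1 strand were merged, and a region enriched in at least 3 of 4 libraries was called reproducible. All 9 genes are named. Every reproducible region is named for genes with up to 6; for NKD1, with 7, the rule named the 6 with the highest mean, and the last region, at 50613956, was added after its values were seen. For a gene with none, its listed peak with the highest −log10 p is named. Other peaks named in the text were chosen after their values were seen. The members, lists and thresholds were chosen with earlier results of these data known. Other WNT genes, cell type markers, genes alike to these, and exon or sequence context need an hg19 annotation or genome and were not analysed here. The tools were Python 3.11.15, pandas 2.3.3, numpy 2.4.6, scipy 1.17.1 and matplotlib 3.10.9. Alternatives for the p and fold thresholds, overlap, libraries asked for, read minimum and each library left out were run.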

Additional observations from a re-analysis of the deposited data

Results flagged for a closer look

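Of 23 quantities compared over the 4 libraries, 4 had a library standing apart from the others by Dixon's criterion for 4 values. The criterion marks about 1 in 20 groups by chance, but the genes were chosen on these values and 3 of the 4 quantities are small counts, so it serves here only to point out values and no chance rate applies. Libraries 3 and 4 were taken singly. In the NKD1 region at 50613646 the log2 fold of library 1 was 3.74, and the other 3 had 5.94 to 6.35, so the gap to the nearest made up 0.844 of the range. Enriched peaks of TCF7L1 numbered 8 in library 1 and 1, 1 and 2 in libraries 2 to 4, a gap of 0.857 of the range. Listed peaks of LRP6 numbered 14 in library 2 and 0, 1 and 2 in libraries 1, 3 and 4, also 0.857 of the range. The 1 enriched peak of CTNNB1 was in library 2, where the other 3 libraries had 0, which gives a gap of 1 of the range by construction.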

How the results depend on the processing

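Of 60 values of the main results under the alternatives, 59 stayed within 1.5 times the main count or within 1 SD. The exception was the count of peaks on the other strand, 2 in all, which was 0 to 2 with each library left out, a check added after seeing the data, since both came from library 1. Reproducible regions of the 9 windows numbered 7 to 13 and NKD1 regions 5 to 7 (10 and 7 as reported), and 3 or 4 genes held one, TCF7L1 being the gene that dropped out. The limit of 1.5 times takes a fall from 10 to 7 regions, or the loss of TCF7L1, as no change. The mean NKD1 fold stayed at 4.81 under the lower fold thresholds, which left its regions and their highest peaks as they were. The 59 of 60 is thus not read as a sign of stability. None of 40 region means moved by over 1 SD with 1 library left out. That SD is of the same 3 samples, so leaving out library 1 or 2 could not move a mean so far. Leaving out library 3 or 4 changes 1 sample only. The same holds for the mean NKD1 fold with a library left out, so neither result is read as a sign of stability. The mean of the NKD1 region at 50613646 lay between 4.95 and 6.06. No paired analysis was possible because the deposited fold already sets each eCLIP library against an input and no second group of libraries remains to be paired. Leaving out a library was combined with asking for 2 of the other 3. The NKD1 folds rest on few input reads, 1 to 5 per peak where the numbers were recovered, and the part of depth in them was not tested.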
